A study of Drosophila melanogaster with 8 samples.

Results

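The genes described here are so (sine oculis), eya (eyes absent), Optix, toy (twin of eyeless), ey (eyeless) and Dll (Distal-less), regulators of the fly head, eye and limb primordia. They were chosen by name, as the rows whose identifiers carry these FlyBase symbols, and make up 6 of the 17468 genes in the count files. Total RNA of whole Drosophila melanogaster embryos was sequenced in 4 groups with 2 libraries each: zen[7] homozygous embryos at stage 6-7 (gastrula), zen[7]/TM3, ftz-lacZ heterozygotes at stage 6-7, zen[7] homozygous embryos at stage 5 (cellular blastoderm) and zen[7]/TM3, ftz-lacZ heterozygotes at stage 5. Every group thus carries zen[7], the heterozygotes in a single copy beside TM3, a balancer of chromosome 3 with a ftz-lacZ transgene. Embryos (N = 100) were pooled for extraction, and the homozygotes were recognised by a genotyping reaction that gave no lacZ product, per the labels' protocols. That reaction cannot tell a heterozygote from an embryo with 2 copies of TM3. How embryos were divided between replicates is not stated, so the p-values below cover the spread between these pools alone.

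The genes so and Optix belong to the sine oculis homeobox family, whose proteins bind DNA through a homeodomain next to a conserved protein-binding domain. The product of eya has no DNA-binding domain of its own, works as a transcriptional coactivator with the So protein, and carries a phosphatase activity. The genes toy and ey encode the fly's Pax6 proteins, with a paired domain and a homeodomain, and toy acts upstream of ey in the eye primordium. In later eye development Pax6 proteins activate so and eya, and the set is known as the retinal determination network. The homeodomain gene Dll marks the limb primordia of head and thorax and is needed for the distal parts of the appendages. The homeodomain gene zen acts on the dorsal side of the blastoderm, downstream of the BMP-type ligand Dpp, where it is required for the amnioserosa, an extraembryonic epithelium.

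None of the 6 genes lies on chromosome 3, the chromosome that differs along its length between the genotypes. In the Ensembl annotation of BDGP6.54, so (FBgn0003460) spans 7419350 to 7434872 on the plus strand of arm 2R, Optix (FBgn0025360) 8031283 to 8042529 and Dll (FBgn0000157) 24814822 to 24835667 on the same strand and arm. The gene eya (FBgn0000320) lies on the minus strand of arm 2L, from 6527447 to 6546976. On the plus strand of chromosome 4, ey (FBgn0005558) spans 697689 to 721173 and toy (FBgn0019650) 989725 to 1007922. Exons of other annotated genes overlap those of a single member, toy, where the overlapping feature is a transposon insertion on the opposite strand. Long noncoding RNA genes and CG11145 lie within the span of so on the opposite strand, with no exon in common.

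Counts assigned to genes summed to 29669956 to 37770105 per library, and 9360 genes, all 6 members among them, had enough counts to be tested. Levels are given as CPM, counts scaled to TMM-adjusted library sizes, and a gene was called at an adjusted p under 0.05. The stages lay apart on the first principal component (84.2% of the variance), where 2 libraries stood apart from their stage: homozygous stage 5 replicate 1, with a score of -46.9 where the rest of stage 5 scored -38.9 to -35.6, and heterozygous stage 6-7 replicate 1, with 34.1 where the rest of stage 6-7 scored 41.4 to 42.1. The transcript of zen was not lower in homozygotes: it had 154 and 134 CPM in the homozygous libraries, against 112 and 106 CPM in the heterozygous ones at stage 5, and 58.9 and 53.8, against 41.0 and 58.2 CPM, at stage 6-7. It therefore gives no check of the genotype labels. The stage labels were checked with slam, nullo, bnk, Sry-alpha, halo and term, genes of cellularization, whose summed level was 178 to 229 CPM in the stage 6-7 libraries and 2940 to 4010 CPM in those of stage 5.

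At the cellular blastoderm, so and Dll were lower in zen[7] homozygotes than in heterozygotes, so at 21.8% of the heterozygous mean and Dll at 40.6% of it. The transcripts of eya and Optix stood lower in both homozygous libraries as well, at 71.8% and 70.9% of the heterozygous means, but did not pass the test. Those of the Pax6 genes toy and ey, at 97.5% and 90.2%, did not pass either.

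The homeobox gene so had the deepest difference of the 6. It had 15 and 56 counts in the homozygous stage 5 libraries (replicates 1 and 2) and 188 and 170 in the heterozygous ones. In CPM these were 0.558 and 1.65 in homozygotes, against 5.45 and 4.70 in heterozygotes. Both homozygous libraries thus lay below both heterozygous ones, and the exact Poisson interval of the higher homozygous library, 1.25 to 2.15 CPM, ended below the interval of the lower heterozygous one, 4.02 to 5.47 CPM (95%, counting error only). The mean was 1.11 ± 0.775 CPM in homozygotes and 5.08 ± 0.530 CPM in heterozygotes (SD, n = 2 each), a log2 fold change of -2.14 (SE 0.323) with a Benjamini-Hochberg adjusted p of 0.00495 by the quasi-likelihood test of edgeR. In RNA of whole embryos, fewer cells with a transcript and less transcript per cell cannot be told apart.

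For Dll the counts were larger. The libraries held 7.29 and 11.5 CPM in homozygotes, against 22.3 and 23.9 CPM in heterozygotes, from 196 and 388 counts and from 767 and 863 counts. Both homozygous libraries lay below both heterozygous ones, by a margin wider than the spread within either group. Means were 9.37 ± 2.95 CPM in homozygotes and 23.1 ± 1.15 CPM in heterozygotes (SD, n = 2 each), a log2 fold change of -1.29 (SE 0.184, edgeR adjusted p = 0.00310).

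The So partner eya had 9.22 and 13.6 CPM in homozygotes, against 14.4 and 17.5 CPM in heterozygotes at stage 5. The groups did not overlap, but the upper homozygous and lower heterozygous libraries were 13.6 and 14.4 CPM, and the log2 fold change of -0.47 (95% interval -0.84 to -0.10) had an edgeR adjusted p of 0.251. Optix, a relative of so that acts in head and eye primordia, had 9.44 and 15.2 CPM in homozygotes, against 16.3 and 18.4 CPM in heterozygotes. Its log2 fold change was -0.49 (95% interval -0.86 to -0.11, edgeR adjusted p = 0.249).

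In toy, which encodes the Pax6 protein that acts first in the eye primordium, the homozygous libraries at 9.29 and 13.9 CPM enclosed the heterozygous ones at 11.8 and 11.9 CPM. Its log2 fold change was -0.028 with a 95% interval of -0.39 to 0.33. The second Pax6 gene, ey, had 2.38 and 1.56 CPM in homozygotes, against 1.80 and 2.57 CPM in heterozygotes. These ranges overlapped, and the log2 fold change of -0.17 had an interval of -0.79 to 0.46, from 53 to 93 counts per library. Differences of any size within this interval are compatible with these libraries.

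**Figure D1:**
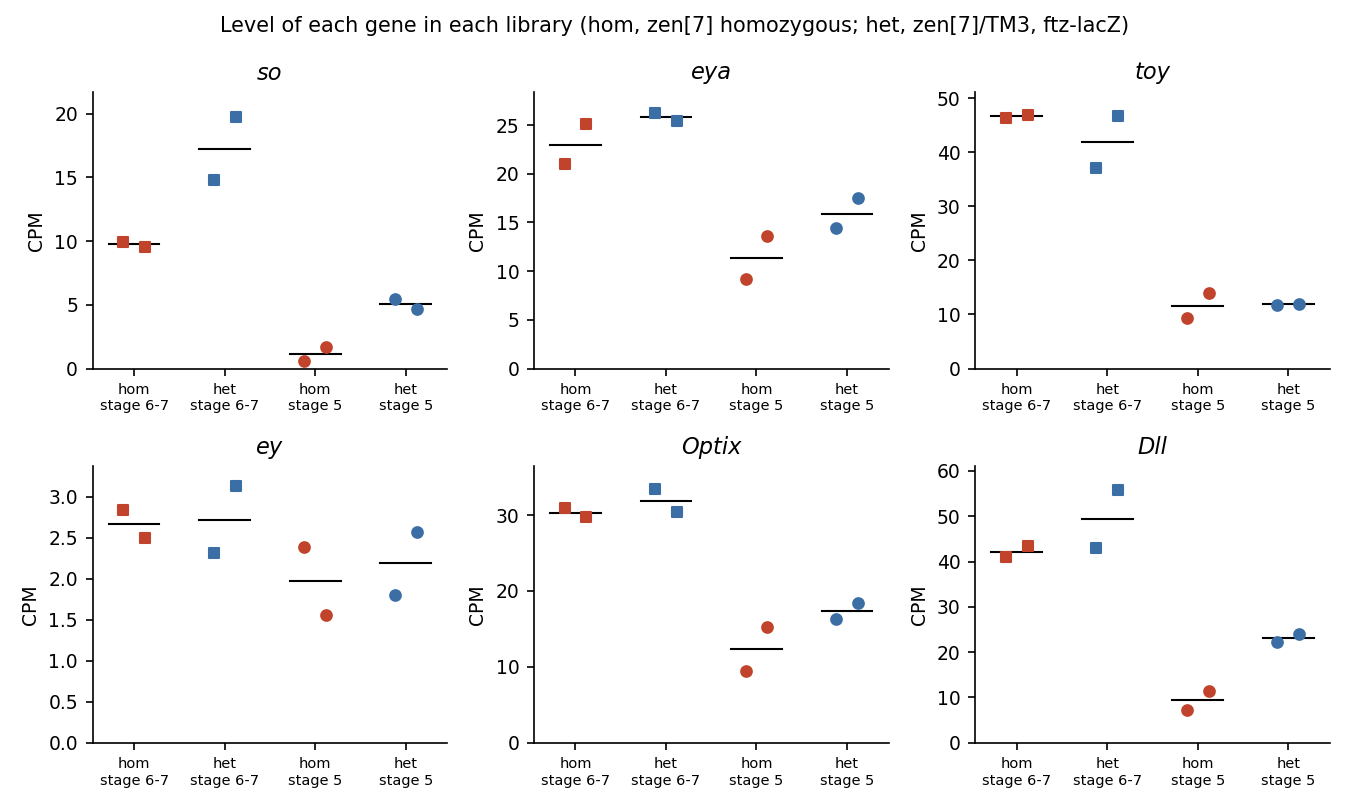
CPM of so, eya, toy, ey, Optix and Dll in each of the 8 libraries, with homozygotes in red, heterozygotes in blue, squares for stage 6-7, circles for stage 5 and a line at each group mean (n = 2). The homozygous stage 5 libraries lie below the heterozygous stage 5 ones for so (0.558 and 1.65, against 5.45 and 4.70 CPM) and for Dll (7.29 and 11.5, against 22.3 and 23.9 CPM).

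In all, 2 of the 6 genes were called lower in homozygotes at stage 5 and 0 higher, where 1.34% of the 9360 tested genes were called lower and 0.288% higher. At an unadjusted p below 0.05, 4 of the 6 passed, as did 12.3% of tested genes (1155). Each of DESeq2 and limma-voom called 2. Both homozygous libraries lay below both heterozygous ones for 4 of the 6, as they did for 21.2% of tested genes. The median log2 fold change was -0.48 over the 6 genes and 0.0047 over all tested genes.

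The homozygous stage 5 replicates were unequal. Replicate 1 had 0.337 times the so level of replicate 2, and between 0.621 and 0.676 times the level of eya, toy, Optix and Dll, while for ey the ratio was 1.52. The same direction was common: of the 2660 genes that were called higher at stage 6-7 than at stage 5 in heterozygotes, 72.0% were lower in homozygous replicate 1 than in replicate 2 (median log2 ratio -0.14). Between the heterozygous stage 5 replicates this share was 47.3% of the 2911 genes called higher at stage 6-7 in homozygotes. The summed cellularization genes stood at 4010 and 2940 CPM in homozygous replicates 1 and 2, against 3640 and 3130 CPM in the heterozygous ones.

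The fall of so and Dll was measured without each library. Without homozygous stage 5 replicate 1 the log2 fold change of so was -1.62 (edgeR adjusted p = 0.00545) and that of Dll -1.01 (adjusted p = 0.00504). Leaving out homozygous stage 5 replicate 2 in its place gave -3.23 for so and -1.71 for Dll (adjusted p = 0.000102 and 7.74e-05), so the size of the so difference depends on which homozygous pool is counted. In that fit eya stood at log2 -0.84 and Optix at -0.93, while without replicate 1 they stood at -0.23 and -0.20. Over all 8 fits with a library left out, the largest adjusted p was 0.0427 for so and 0.0228 for Dll. A fit left with 1 library in a group assumes that it varies like the other groups.

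**Figure D2:**
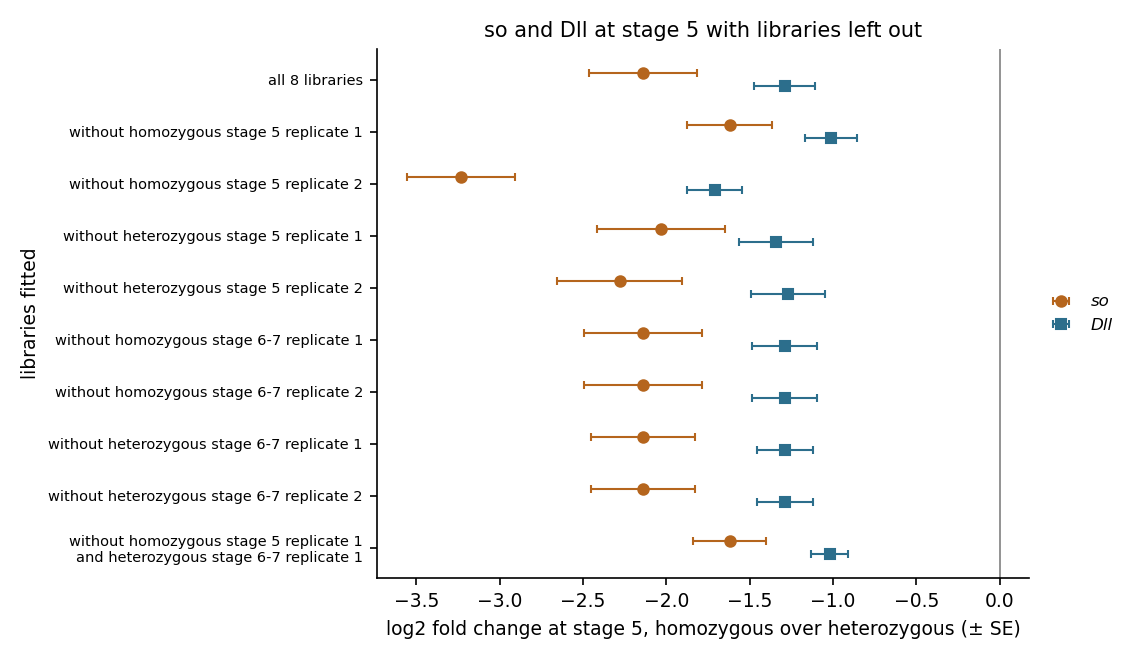
Log2 fold change at stage 5, homozygous over heterozygous, of so (circles) and Dll (squares) with all 8 libraries and with libraries left out, bars showing the SE of the edgeR fit. Every value lies below 0, from -3.23 to -1.62 for so and from -1.71 to -1.01 for Dll.

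At gastrulation edgeR called 0 of the 6 genes between the genotypes, where 1.25% of tested genes were called lower in homozygotes and 0.524% higher. The gene so alone had an unadjusted p below 0.05, beside 7.54% of tested genes (706). limma-voom called 1, which was so, and DESeq2 called 0. The median log2 fold change of the 6 was -0.12, and that of all tested genes 0.0135.

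For so, both homozygous libraries still lay below both heterozygous ones, at 9.95 and 9.57 CPM in homozygotes, against 14.8 and 19.7 CPM in heterozygotes. The homozygous mean was 56.6% of the heterozygous mean, and the log2 fold change of -0.82 (SE 0.240, 95% interval -1.34 to -0.30) had an edgeR adjusted p of 0.176. A call of so was made by limma-voom (adjusted p = 0.0436), with the 4 libraries of stage 6-7 alone (0.0234), without the low-count filter (8.34e-05), and without homozygous stage 5 replicate 1 (0.00975) or replicate 2 (0.00636), libraries of the other stage that enter through the shared spread. Over all alternatives the log2 fold change of so at this stage ran from -1.01 to -0.60 and its adjusted p reached 0.976. The heterozygous replicate 1, which stood apart, was the lower heterozygous library for so, toy, ey and Dll and the higher one for eya and Optix. It was the lower one for 77.4% of the 2911 genes called higher at stage 6-7 than at stage 5 in homozygotes. Without it the log2 fold change of so was -1.01 (adjusted p = 0.137). Leaving it out together with homozygous stage 5 replicate 1, an alternative chosen after seeing the data, gave log2 fold changes of -1.01 for so and -0.40 for Dll.

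Dll had 41.0 and 43.4 CPM in homozygotes at stage 6-7, against 43.0 and 55.7 CPM in heterozygotes, so that the groups overlapped. Its log2 fold change was -0.23 (95% interval -0.59 to 0.14). For eya the libraries stood at 21.0 and 25.1 CPM in homozygotes, against 26.2 and 25.4 CPM in heterozygotes, a log2 fold change of -0.16 (interval -0.51 to 0.18). The groups of eya did not overlap, though 25.1 and 25.4 CPM are within counting error. The groups did not overlap in the lower direction for 2 of the 6, so and eya, and for 16.2% of tested genes.

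The remaining genes overlapped between the genotypes at stage 6-7. Optix had 30.9 and 29.7 CPM in homozygotes, against 33.5 and 30.4 CPM in heterozygotes (log2 -0.076, interval -0.43 to 0.28). The Pax6 gene toy had 46.3 and 46.8 CPM in homozygotes, against 37.1 and 46.7 CPM in heterozygotes (log2 0.15, interval -0.17 to 0.48), and its partner ey had 2.83 and 2.49 CPM, against 2.31 and 3.13 CPM (log2 -0.029, interval -0.61 to 0.56). Under the settings given first, with the low-count filter and all libraries, edgeR called none of these 3 in either genotype comparison. Without that filter Optix was called lower at stage 5 (adjusted p = 0.012), as was eya (0.0239).

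**Figure D3:**
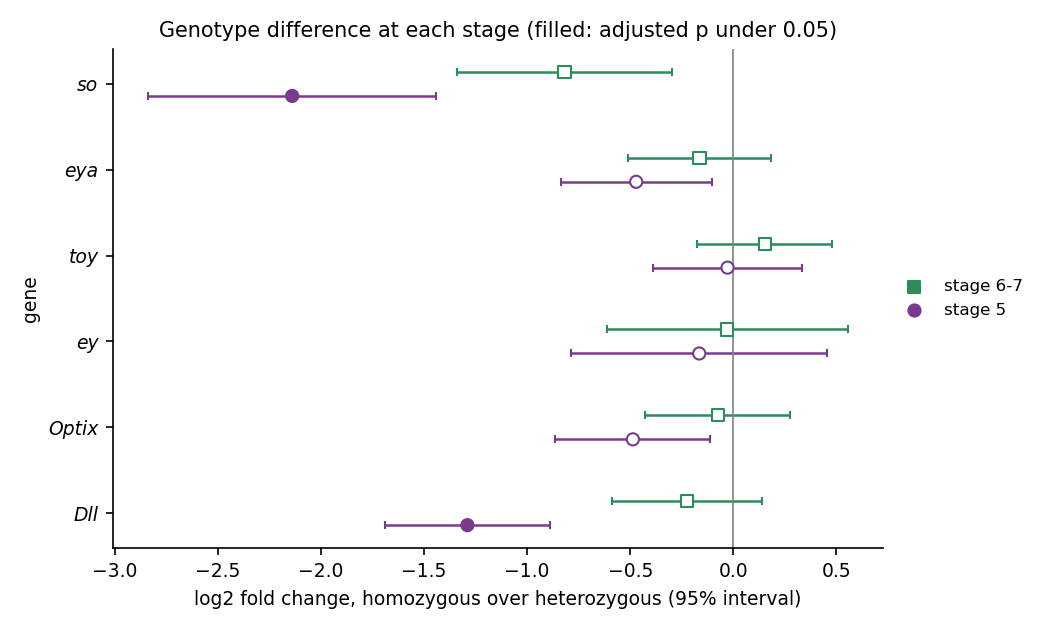
Log2 fold change, homozygous over heterozygous, of each gene at stage 6-7 (green squares) and stage 5 (purple circles), with 95% intervals from the edgeR fit; filled symbols have an adjusted p under 0.05. The filled symbols are so (-2.14) and Dll (-1.29) at stage 5.

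Whether the genotype difference itself changed between the stages was tested as the log2 fold change at stage 6-7 minus that at stage 5. Of the 6 genes, edgeR called 0, where 0.0748% of tested genes were called. The unadjusted p was below 0.05 for 2, beside 6.72% of tested genes (629), and DESeq2 called 1 and limma-voom 0. For Dll the change was 1.06 on the log2 scale (SE 0.248, 95% interval 0.52 to 1.60), with an edgeR adjusted p of 0.186 and a DESeq2 adjusted p of 0.00536. For so it was 1.32 (SE 0.406, interval 0.43 to 2.21, edgeR adjusted p = 0.410). Without homozygous stage 5 replicate 2 the change was 2.40 for so, 0.85 for Optix and 1.48 for Dll. Without replicate 1 it was 0.805 for so, 0.125 for Optix and 0.792 for Dll. For eya, toy, ey and Optix the change with all libraries was 0.14 to 0.41 in log2, with intervals that include 0. Without the low-count filter edgeR called the change for so (adjusted p = 0.000733) and Dll (2.35e-06). Whether the genotype difference is called as different between the stages thus depends on the settings. In the unfiltered fit so at stage 5 had an edgeR adjusted p of 8.16e-19, against 0.00495 with the filter. The log2 fold changes were -2.15 (SE 0.223) and -2.14 (SE 0.323). The p-values given without the filter therefore rest on a spread treated as closely known from 2 libraries a group.

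From blastoderm to gastrula, 5 of the 6 genes rose in both genotypes and ey was not called in either. In homozygotes 31.1% of tested genes were called higher at stage 6-7 and 29% lower, and in heterozygotes 28.4% higher and 26.5% lower, so a rise was common. The median log2 fold change of the 6 was 1.64 in homozygotes and 0.99 in heterozygotes, beside -0.0021 and 0.017 over all tested genes. The genotypes' stage differences and the change tested above are built from the same libraries.

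In homozygotes so rose 8.47-fold, to 9.76 ± 0.273 CPM at stage 6-7, against 1.11 ± 0.775 CPM at stage 5 (SD, n = 2 each, log2 3.08, SE 0.311, edgeR adjusted p = 3.49e-06). In heterozygotes it rose 3.39-fold, to 17.2 ± 3.45 CPM, against 5.08 ± 0.530 CPM (log2 1.76, SE 0.252, adjusted p = 7.65e-05). The homozygous level at stage 6-7 was thus above the heterozygous level of stage 5 and below the heterozygous level of stage 6-7 in every library. Dll rose 4.47-fold in homozygotes, to 42.2 ± 1.68 CPM against 9.37 ± 2.95 CPM (log2 2.16, adjusted p = 6.28e-07), and 2.14-fold in heterozygotes, to 49.3 ± 8.99 CPM against 23.1 ± 1.15 CPM (log2 1.10, adjusted p = 0.000134).

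The Pax6 gene toy rose in both genotypes, 4.0-fold in homozygotes (46.6 ± 0.351 CPM at stage 6-7, against 11.6 ± 3.24 CPM at stage 5) and 3.53-fold in heterozygotes (41.9 ± 6.76 CPM, against 11.9 ± 0.0643 CPM), with edgeR adjusted p-values of 2.24e-07 and 5.73e-07. Optix rose 2.44-fold and 1.84-fold in homozygotes and heterozygotes, and eya 2.0-fold and 1.62-fold. Their edgeR adjusted p-values were 2.37e-05 and 0.000551 for Optix, and 0.000158 and 0.00249 for eya. The gene ey had log2 fold changes of 0.45 (interval -0.16 to 1.06, adjusted p = 0.189) in homozygotes and 0.31 (interval -0.28 to 0.91, adjusted p = 0.361) in heterozygotes. In homozygotes all 6 genes were higher in both stage 6-7 libraries than in both stage 5 ones, as were 40.9% of tested genes, and in heterozygotes 5 were, ey being the exception, beside 40.3%.

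**Figure D4:**
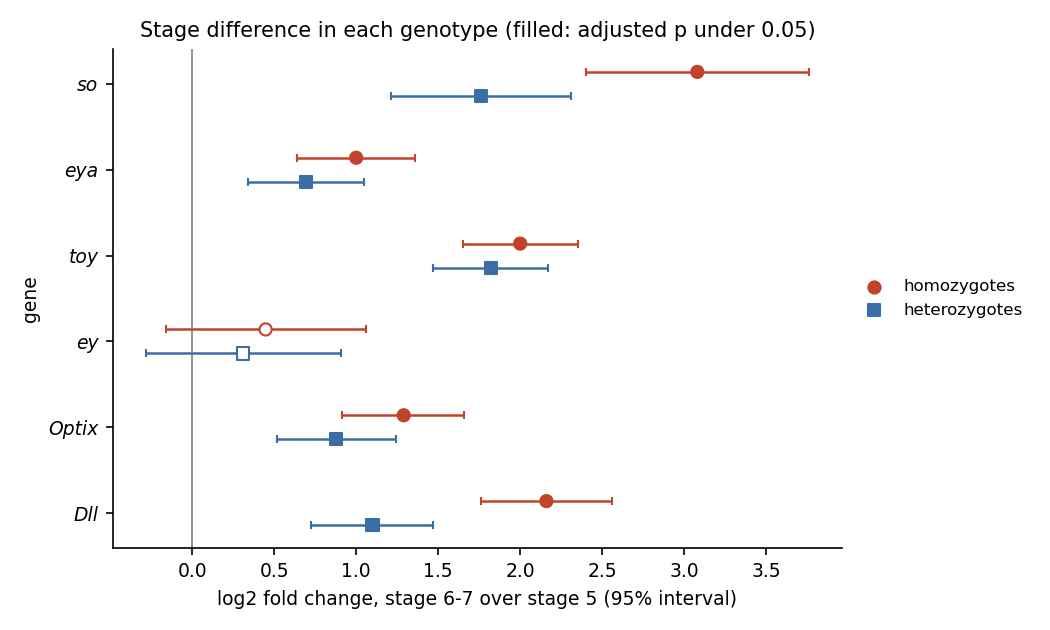
Log2 fold change, stage 6-7 over stage 5, of each gene in homozygotes (red circles) and heterozygotes (blue squares), with 95% intervals from the edgeR fit; filled symbols have an adjusted p under 0.05. The values of so are 3.08 in homozygotes and 1.76 in heterozygotes, those of Dll 2.16 and 1.10, and those of ey, unfilled, 0.45 and 0.31.

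Levels of different genes were compared as CPM per kb of annotated exon. In heterozygotes at stage 5 the order was Dll (6.97), Optix (6.21), eya (4.32), toy (3.03), so (1.82) and ey (0.588), and no neighbours in it overlapped between libraries. In homozygotes at stage 5 Optix (4.4), eya (3.10), toy (2.95) and Dll (2.83) overlapped along the order, as did ey (0.530) and so (0.397), which stood below the other 4. The first place in heterozygotes was that of Dll, whose place in homozygotes is not resolved by these overlapping values: with the longest transcript as length it stood at 3.03, above toy at 2.95. The lowest in both were so and ey. At stage 6-7 homozygotes had Dll at 12.8, toy at 11.9, Optix at 10.8, eya at 6.24, so at 3.50 and ey at 0.716 CPM per kb, with no overlap between neighbours. Heterozygotes had Dll at 14.9, Optix at 11.4, toy at 10.7, eya at 6.99, so at 6.19 and ey at 0.732 CPM per kb, where Optix and toy, and eya and so, overlapped. Set among the 9187 tested genes with a length, Dll reached the 56.7th and 60.0th percentile in homozygotes and heterozygotes at stage 6-7, and ey the 21.3rd and 21.8th.

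The So and Eya proteins work as partners, and the level of so relative to eya was read in each library as a ratio of CPM per kb. It was 0.628 and 0.506 in homozygotes and 0.749 and 1.03 in heterozygotes at stage 6-7, and 0.0801 and 0.161 in homozygotes and 0.503 and 0.356 in heterozygotes at stage 5. The homozygous ratios lay below the heterozygous ones at both stages, and the stage 6-7 ratios above the stage 5 ratios in both genotypes. The ratio of ey to toy was 0.0561 to 0.0706 in the stage 6-7 libraries of both genotypes and 0.119 to 0.270 in those of stage 5, and overlapped between genotypes at stage 5. With 2 libraries a group these ratios are given as a description, with no test.

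**Figure D5:**
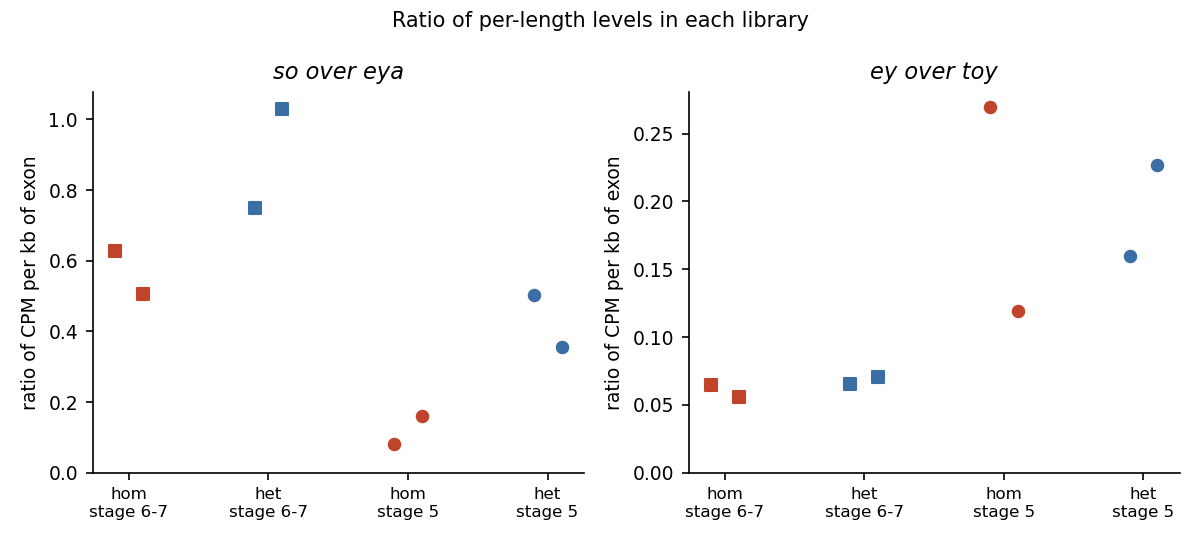
Ratio of CPM per kb of exon in each library, so over eya (left) and ey over toy (right), with homozygotes in red, heterozygotes in blue, squares for stage 6-7 and circles for stage 5. At stage 5 the ratio of so to eya is 0.0801 and 0.161 in homozygotes and 0.503 and 0.356 in heterozygotes.

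Other regulators of the same primordia were read from lists of genes. Of 9 further genes of eye specification (dac, eyg, toe, Six4, dan, danr, tsh, hth and exd), 7 were tested and edgeR, with the low-count filter and all libraries, called 0 between the genotypes at either stage. At stage 5 the unadjusted p was below 0.05 for 1, beside 12.3% of tested genes. DESeq2 called 1 there (tsh, adjusted p = 0.0496), of 250 called over all genes, and limma-voom 0. At stage 6-7 all 3 counts were 0. The zinc-finger gene tsh, which takes part in eye and trunk specification, averaged 108 ± 30.6 CPM in the homozygous and 150 ± 8.38 CPM in the heterozygous libraries of stage 5 (SD, n = 2 each, log2 -0.47, edgeR adjusted p = 0.240). Its log2 fold change was -0.22 without homozygous stage 5 replicate 1 and -0.84 without replicate 2. Without the low-count filter tsh was called (edgeR adjusted p = 0.000122). Six4, the remaining gene of the sine oculis family, lies on arm 3L, of the chromosome that differs between the genotypes. It had log2 fold changes of -0.42 at stage 5 and -0.32 at stage 6-7 (edgeR adjusted p = 0.419 and 0.874). The homeodomain cofactor gene exd had a log2 fold change of -0.11 at stage 6-7. With stage, 5 of the 7 rose and 1, dac, fell in each genotype. Of all tested genes, 31.1% rose and 29% fell in homozygotes, and 28.4% and 26.5% in heterozygotes.

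Genes that pattern the head earlier, the head gap and procephalic genes, gave no call between the genotypes by edgeR under the settings given first. Of 14 listed (oc, ems, btd, tll, slp1, slp2, cnc, croc, Sp1, Lim1, hbn, Rx, D and scro), 13 could be matched and were tested. At stage 5 the unadjusted p was below 0.05 for 3, beside 12.3% of tested genes, while DESeq2 called 1 and limma-voom 0. At stage 6-7 the counts were 0, 0 and 0. The Sox gene D lies on arm 3L, of the chromosome that differs between the genotypes. It averaged 152 ± 15.3 CPM in the homozygous and 210 ± 10.7 CPM in the heterozygous libraries of stage 5 (log2 -0.46, edgeR adjusted p = 0.0866, DESeq2 adjusted p = 0.013). In edgeR fits D was also called with the 4 libraries of stage 5 alone (0.043), without the low-count filter (0.000109) and without either heterozygous stage 6-7 library (0.0303 and 0.0312), and in all 7 of 18 alternatives called it. The head gap gene oc (orthodenticle) averaged 153 ± 4.45 CPM in the homozygous libraries, against 125 ± 12.5 CPM in the heterozygous ones (log2 0.29, edgeR adjusted p = 0.216). At stage 6-7 hbn and slp1 had the smallest p-values of this list, with log2 fold changes of -0.18 and 0.18. The median log2 fold change of the 13 was -0.039 at stage 5, where that of so, eya, toy, ey, Optix and Dll was -0.48.

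Of 16 genes around the appendage primordia and the control of Dll (btd, Sp1, disco, disco-r, al, esg, sna, wg, hth, Antp, Ubx, abd-A, Dfd, Scr, lab and pb), 12 were tested. Genes disco-r, esg and wg could not be matched to a row and are not covered, and btd, Sp1, hth and sna are in other lists too. Of the 12, 1 was called between the genotypes, at stage 5, where 1.34% of tested genes were called lower. This was the Hox gene Dfd, which specifies gnathal head segments and lies on arm 3R, with 13.3 and 20.0 CPM in homozygotes, against 27.2 and 27.3 CPM in heterozygotes (log2 -0.71, SE 0.157, edgeR adjusted p = 0.0405). The groups did not overlap. The call of Dfd was lost without homozygous stage 5 replicate 1 (log2 -0.45, adjusted p = 0.114), without either heterozygous stage 5 library (0.21 and 0.177), with the 4 libraries of stage 5 alone (0.06), with library totals alone (0.0572) and without homozygous stage 6-7 replicate 1 (0.0515). At stage 6-7 edgeR, DESeq2 and limma-voom called 0 of the 12, and the unadjusted p was below 0.05 for 1, beside 7.54% of tested genes. Between the stages 8 of the 12 were called higher in each genotype and 0 lower. Of all tested genes, 31.1% were called higher in homozygotes and 28.4% in heterozygotes.

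A list of genes around the dorsal ectoderm and amnioserosa, the tissue in which zen acts, had the most calls of the lists. It also had the most tested genes, 18, and was chosen with earlier results of these data known, so its rank is a description. Of its 18 genes, 7 were called lower in homozygotes at stage 5 and 8 at stage 6-7, and 0 higher. Of all tested genes, 1.34% and 1.25% were called lower at these stages. DESeq2 called 11 and 8 of the 18, and limma-voom 7 and 9. The list held zen, zen2, peb, tup, ush, C15, pnr, Doc1, Doc2, Doc3, Ance, Dtg, egr, Kr, dpp, tld, scw and sog. The gene sog is also among the neurectoderm markers below. Called at both stages were peb, tup, ush, C15, Ance and Doc2, at stage 5 alone pnr, and at stage 6-7 alone egr and Dtg. Of these, C15, pnr and Dtg lie on arm 3R and Doc2 on arm 3L, of the chromosome that differs between the genotypes. The call of egr (adjusted p = 0.0249) was lost in 8 of 19 alternatives, among them the fits without each of the stage 6-7 libraries (0.156 to 0.458) and without the low-count filter (0.111), while its log2 fold change stayed between -2.75 and -2.58. At stage 5 the called genes had log2 fold changes of -2.31 for the homeobox gene C15, -1.60 for the GATA cofactor gene ush, -1.57 for the zinc-finger gene peb, -1.49 for the GATA factor gene pnr, -1.30 for the LIM-homeodomain gene tup, -0.91 for the T-box gene Doc2 and -0.74 for Ance, and the median of the 18 genes was -0.39. At stage 6-7 ush and tup were still called, with -1.06 and -2.06, and pnr stood at -0.60 (edgeR adjusted p = 0.210). In the cellularization list 1 of 5 tested genes, nullo, was called at stage 5 (log2 -1.07, adjusted p = 0.0287), which was lost without heterozygous stage 5 replicate 1 (0.388).

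Markers of other embryonic regions were summed per library. At stage 5 the mesoderm genes twi, sna, Mef2 and htl summed to 668 and 653 CPM in homozygotes and 709 and 689 CPM in heterozygotes. The neurectoderm genes vnd, ind, sog and ase summed to 585 and 692 CPM, against 556 and 637 CPM, and the yolk and endoderm genes srp, fkh and GATAe to 284 and 326 CPM, against 313 and 378 CPM. The sums are mostly twi and sna, srp and fkh, or sog. Within them Mef2, a myogenic factor gene, was lower in both homozygous libraries, at 8.07 and 12.1 CPM in homozygotes, against 21.5 and 15.7 CPM in heterozygotes (log2 -0.87, edgeR adjusted p = 0.190). The same held for htl, at 109 and 131 CPM, against 138 and 146 CPM (log2 -0.24, adjusted p = 0.347), and for fkh, at 126 and 131 CPM, against 149 and 156 CPM (log2 -0.25, adjusted p = 0.251). The 2 pole cell genes that could be matched, pgc and gcl, summed to 38.9 and 41.2 CPM, against 48.2 and 40.3 CPM. Both homozygous libraries were also the lower ones for gcl (log2 -0.27, edgeR adjusted p = 0.387), for GATAe and, narrowly, for twi. They lay below both heterozygous ones for 21.2% of tested genes. Of the 13 marker genes, ase and GATAe were near 0 at stage 5, at 0.0743 to 0.207 and 0.0591 to 0.261 CPM. Between the genotypes at stage 5 edgeR, DESeq2 and limma-voom each called 0 of the 13, and the unadjusted p was below 0.05 for 4, where it was for 12.3% of tested genes. Their part in the differences of so and Dll was not tested.

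The genes whose level followed each member most closely over the 8 libraries were named by Pearson's r of log2(CPM + 0.5), among the candidates with at least 5 CPM on average (6177 for ey and 6176 for each of the others). These libraries share the stage difference, which alone gives many high values, so the r are a description. For so they were mtd (0.992), Dfd (0.991) and FBgn0250876, for which no symbol was found (0.990), and for Dll they were Glut4EF (0.998), lama (0.995) and Dfd (0.993). The gene eya was followed by CG10333 (0.984), erm (0.983) and mio (0.983), and Optix by Rpn3 (0.991), Atg9 (0.989) and Seipin (0.989). For toy the nearest were RNaseZ, CG31751 and Usf, each at 0.999, and 1368 candidates reached at least 0.95, against 76 for so and 146 for Dll. No candidate reached 0.95 with ey, whose nearest were sd (0.899), FBgn0027605 (0.879) and CG9380 (0.876). Among the members themselves so and Dll had an r of 0.989 and eya and Optix one of 0.981, while ey had 0.512 to 0.595 with the other 5.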

How the data were processed

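For each library the authors deposited raw read counts by gene, in whole numbers. The submitters' processing notes name STAR and HTSeq, and the reads were 100 bp paired reads with 200 bp inserts, per the labels' protocols. The genome build and strandedness were not given in the sources used here. The annotation is not named there either. Antisense partners thus cannot be told apart. Lines that name no gene held 12.89% to 18.22% of each total and were left out. Symbols, positions and exon lengths came from Ensembl 115 (BDGP6.54) by gene ID: 17188 IDs were placed and 280 were not, and scro, disco-r, esg, wg, nos and vas could not be matched to a row. Intervals on single counts are exact Poisson intervals and cover counting error only.

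Titles gave each sample's genotype and stage. Counts were scaled with TMM (factors 0.907 to 1.07), filtered with filterByExpr (minimum count 10) and fitted with edgeR 4.0.16 under R 4.3.3. The model had a mean for each of the 4 groups and took all 8 libraries, which share 1 estimate of the spread (glmQLFit, robust; glmQLFTest). All 5 comparisons were adjusted over all tested genes by Benjamini-Hochberg, with a threshold of 0.05. An SE is the size of the log2 fold change divided by the root of its F statistic, and 95% intervals use the t distribution with the fit's degrees of freedom. The fit was tested on simulated data. CPM per kb uses the union of a gene's exons.

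The genes described, the lists and the tests were chosen with earlier results of these data known. Of each list the genes called in a genotype comparison were named, or else the 2 of smallest p at each stage. Values of marker genes were added after they were seen. For each gene described, the 3 tested genes of highest r were named. Alternatives were DESeq2 1.42.0, limma-voom (limma 3.58.1), scaling by RLE or by library totals alone, a filter of 1 CPM in 2 libraries, no low-count filter, a replicate block, the 4 libraries of the compared groups alone, genes off chromosome 3 alone and each library left out. Leaving out together the 2 libraries that stood apart on the first component was added after seeing the data.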

Additional observations from a re-analysis of the deposited data

How the results depend on the processing

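All 228 alternative values of the stage changes of so, eya, toy, ey, Optix and Dll kept their direction and side of the threshold, with 5 genes called in each genotype under every alternative. Of 336 values for the genotype differences and their change with stage, 302 did, 21 gained a call, 0 lost one and 13 changed sign, all in genes not called. At stage 5, 2 genes were called with all libraries and 4 without the low-count filter or with a replicate block within stage; leaving out 1 library gave 2 to 4. At stage 6-7 the count of 0 became 1 without the low-count filter, by limma-voom and with the 4 libraries alone, 2 (so and Dll) without both libraries that stood apart, and 0 to 1 without 1 library. For the change with stage it became 2 without the low-count filter, 1 (Dll) by DESeq2 and with either replicate block, and 0 to 3 without 1 library. The cause was not tested.

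Signs changed as follows. With 1 library left out, the log2 fold change of toy ran from -0.403 to 0.219 at stage 5 and -0.00434 to 0.329 at stage 6-7, and that of ey from -0.489 to 0.0811 and -0.232 to 0.205. The change with stage ran from -0.0633 to 0.552 for toy and -0.114 to 0.463 for ey. Without both libraries that stood apart, toy had 0.218 at stage 5, Optix 0.000202 at stage 6-7, and the change with stage of toy was -0.217.

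Whether same-numbered libraries were prepared together is not stated. Their deviations from their group means correlated at -0.0803 to 0.0877 across genes, a measure over all genes that cannot settle whether they were paired. Over all genes, calls at stage 5 numbered 152, and 397 without the low-count filter, 250 by DESeq2, 249 and 340 with the replicate block overall and within stage, 326 without both libraries, 66 to 805 without 1, and 33 off chromosome 3 alone, where fewer genes are tested. At stage 6-7 they numbered 166, and 285 without the filter, 299 without both libraries, 89 to 218 without 1 and 17 off chromosome 3. For the change with stage they numbered 7, and 123 without the filter, 57 by DESeq2, 3 by limma-voom, 38 and 87 with the blocks, 35 without both libraries, 3 to 296 without 1 and 0 off chromosome 3. With 2 libraries a group and 15 to 93 counts for so in homozygotes and ey at stage 5, differences in these genes were measured with little precision.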
